A study of Mus musculus with 36 samples.

Results

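Mouse embryos labelled VP64 were compared with embryos labelled Ctrl at the 8-cell stage, across all genes of the deposited table. The members were chosen by their labels alone, treatment VP64 or Ctrl and developmental stage 8C, and number 13 of the 36 libraries of the series, 7 VP64 and 6 Ctrl. Another 6 libraries labelled NI at the same stage are used beside them for scale. Each library is RNA from a pool of 4 to 5 embryos, amplified with SMART-seq v4, a kit for very small amounts of RNA. The labels say that embryos were injected, give no genotype, strain, age or batch, and do not say what Ctrl embryos received or what NI stands for. The title of the series concerns LINE-1 and the accessibility of chromatin, and the comparison addresses how the transcriptome of 8-cell embryos stands after an activator.

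VP64 is a strong transcriptional activation domain made of repeated copies of a short segment of a herpes virus protein, and it is commonly fused to a DNA-binding protein to switch on a chosen target. LINE-1 elements are retrotransposons that mouse embryos transcribe soon after fertilisation and then silence as cleavage goes on. In the same period the embryo replaces the RNA stored in the oocyte with its own, passes through a burst of transient 2-cell genes, raises ribosome and metabolic genes, and by the 8-cell stage compacts and begins to separate trophectoderm from inner cells. The values used here are per gene symbol, so LINE-1 RNA was not analysed here, and with no measure of the injected construct the label VP64 could not be checked against its own agent.

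The label of the stage was checked with a stage score, the mean log2(CPM + 1) of the 200 genes that rose most from the 2-cell to the 8-cell stage in NI libraries minus that of the 200 that fell most. CPM are a gene's counts relative to its library's scaled total, as counts per 1e6. Computed over all 36 libraries, the score was 3.99 ± 0.249 (SD, n = 7) in VP64 and 4.30 ± 0.579 (SD, n = 6) in Ctrl at the 8-cell stage, against -4.07 ± 1.07 (SD, n = 7) in Ctrl at the 2-cell stage. Library totals ran from 1462479 to 6699587 expected counts in VP64 and from 1669772 to 7063742 in Ctrl. One library of each group stood apart from the rest. Ctrl replicate 6 had a median rank correlation with the other 8-cell libraries of 0.746, 9672 genes with a count, and 21.9% of its counts in its 10 most abundant genes. VP64 replicate 7 had 0.826, 11343 genes and 13.1%. Replicates are numbered only to name them and have no order. Of 41 cumulus and granulosa cell genes, 6 passed the filter on low counts and 14 had no count in any of the 13 libraries, and of 25 sperm genes 2 passed and 11 had none. The summed level of the cumulus list was 246 to 1733 CPM in VP64 and 213 to 1845 CPM in Ctrl, most of it from Gja1, Sdc4 and Amhr2, the first a gap junction gene of the embryo itself. Cyp11a1, a steroid-forming enzyme of granulosa cells, had counts in 1 VP64 library only, 120 in all. Hsd3b1, another such enzyme, had 258 counts in 2 VP64 libraries and 0 in Ctrl, and is among the 200 falling genes of the stage score. Star and Hsd17b1 had counts in both groups, 21 and 106 in VP64 against 22 and 65 in Ctrl. The part of such cells in the results below was not tested.

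At the level of single genes, no gene differed between VP64 and Ctrl past the threshold. Of 23845 genes, 9850 had enough counts to be tested, and edgeR's quasi-likelihood test with Benjamini-Hochberg adjustment called 0 of them at 0.05, a share of 0%, with a smallest adjusted p of 0.999. Before adjustment 393 genes had a p under 0.05, 3.99% of those tested, where evenly spread p-values would give 492.5. Of these, 152 (1.54%) were higher and 241 (2.45%) lower in VP64. The log2 fold change was above 0 for 4396 genes (44.6%), with a median of -0.06 over all genes. DESeq2 called 1 gene and limma-voom 0. At an unadjusted p under 0.05 there were 757 of 17696 genes in DESeq2, which kept genes of lower counts, and 502 of 9850 in limma-voom. The split depended on the tool, since 72.7% of the genes that limma-voom placed under 0.05 were higher in VP64, against 38.7% in edgeR. The p-values weigh the difference between VP64 and Ctrl against the spread between these pools. The labels do not say that the pools came from separate litters or days, so that spread may be technical.

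**Figure D1:**
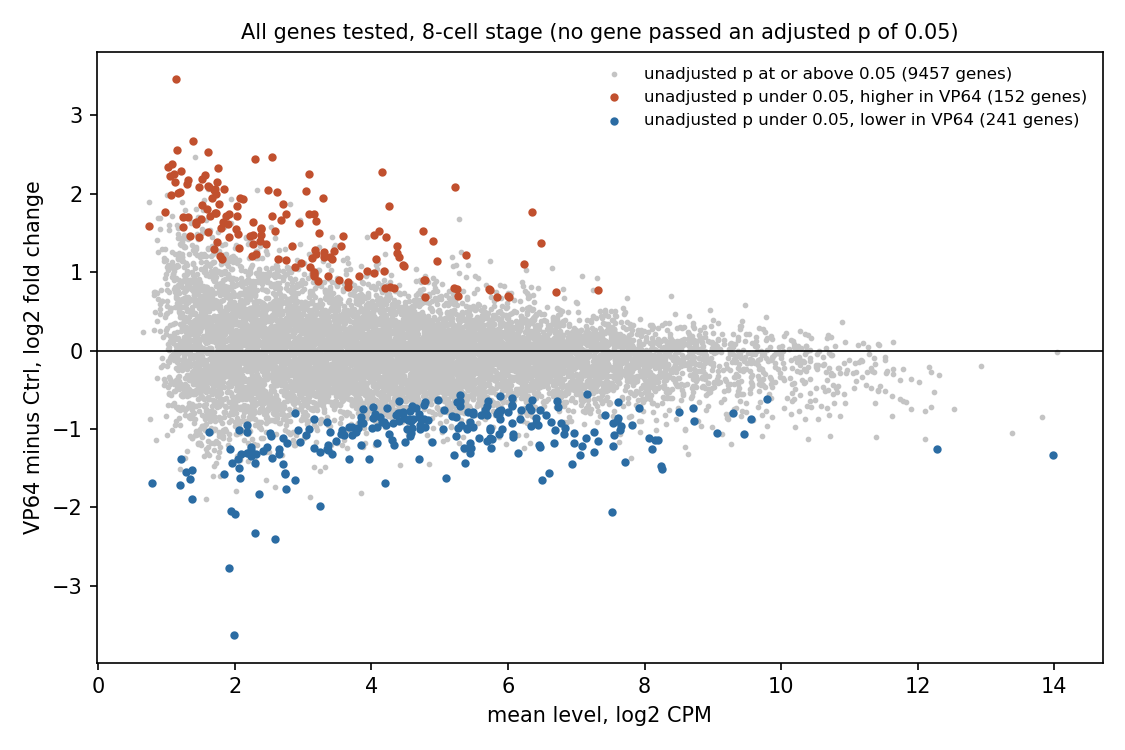
Each point is 1 of the 9850 genes tested, with its mean level (log2 CPM) on the horizontal axis and its VP64 minus Ctrl log2 fold change on the vertical axis. The 152 higher genes (red) and 241 lower genes (blue) at an unadjusted p under 0.05 differ in level, and none passed after adjustment. The median level of the higher genes was 8.48 CPM in VP64 and 2.61 CPM in Ctrl. For the lower genes it was 18.7 and 35.5 CPM, and over all genes 17.6 and 18.4 CPM.

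The precision of the comparison sets what this count can say. The biological coefficient of variation between pools was 0.609, and the median half-width of a gene's 95% interval was 1.01 on the log2 scale. For 1934 genes (19.6%) the interval lay within 2-fold either way, and for 8382 genes (85.1%) within 4-fold. Among the 6507 genes with a mean of at least 10 CPM in VP64 or Ctrl, 1838 had an interval within 2-fold. For most genes the interval thus reached beyond 2-fold in at least 1 direction, and changes beyond 4-fold lay outside the interval of most. These intervals are not adjusted for the number of genes tested, so a call needed a larger change. Lrp2 and Enpep, with log2 fold changes of -1.98 and -3.63, both had an adjusted p of 0.999 in edgeR.

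The genes with the smallest unadjusted p, 5 in each direction among genes of at least 10 CPM, are described here as the top of a ranking in which no gene passed. Among the higher genes the most abundant was Ldha (chromosome 7, 46841475 to 46855627, GRCm38), which encodes the lactate dehydrogenase subunit that interconverts pyruvate and lactate. Ldha had 47.0, 129 and 343 CPM (lowest, median and highest of 7 VP64 libraries) against 15.6, 48.5 and 57.5 CPM in 6 Ctrl libraries and 9.74, 26.9 and 76.0 CPM in 6 NI libraries. Of the VP64 libraries, 6 lay above the Ctrl median, and the groups overlapped only through replicate 7 of VP64, the lowest of its group. The log2 fold change was 1.77 ± 0.46 (SE), with an unadjusted p of 0.000864 in edgeR. Without Ctrl replicate 6 it was 1.59.

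Uchl1 (chromosome 5, 66676091 to 66687234) encodes a ubiquitin hydrolase that is abundant in oocytes, and it is on the list of maternal transcripts. Its levels were 23.8, 29.2 and 51.2 CPM in VP64 against 7.04, 13.1 and 19.97 CPM in Ctrl and 7.37, 11.99 and 23.2 CPM in NI. Every VP64 library lay above every Ctrl library and above every NI library. The log2 fold change was 1.34 ± 0.35 (SE), with an unadjusted p of 0.000917 in edgeR. An antisense gene, Uchl1os, overlaps its exons, and the counting is not stated to use strand, so reads of both cannot be told apart.

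Nfe2l2 (chromosome 2, 75675513 to 75704641) encodes NRF2, the transcription factor of the antioxidant response. It had 13.8, 23.9 and 44.7 CPM in VP64 against 3.35, 8.73 and 19.17 CPM in Ctrl and 10.3, 17.3 and 30.5 CPM in NI. All 7 VP64 libraries were above the Ctrl median, the ranges overlapped at their ends, and the NI libraries overlapped both. This gave a log2 fold change of 1.44 ± 0.40 (SE), with an unadjusted p of 0.00153 in edgeR. Akr1b3, the aldose reductase that turns glucose into sorbitol, had 24.9, 53.9 and 76.3 CPM in VP64 against 12.48, 24.3 and 34.5 CPM in Ctrl, with a log2 fold change of 1.22. Gdpd1, a phosphodiesterase of lysophospholipids, had 11.2, 23.7 and 51.1 CPM against 4.47, 7.63 and 15.99 CPM, with a log2 fold change of 1.53. In both genes all 7 VP64 libraries lay above the Ctrl median, and the ranges overlapped.

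On the lower side, Lrp2 (chromosome 2, 69424340 to 69586065) encodes megalin, an endocytic receptor that appears on the outer cells of the early embryo and is on the trophectoderm list. Its levels were 0.437, 3.96 and 5.68 CPM in VP64 against 9.13, 14.2 and 22.5 CPM in Ctrl and 2.62, 8.71 and 22.1 CPM in NI. All 7 VP64 libraries were below all 6 Ctrl libraries, whereas the NI libraries overlapped both ranges. The log2 fold change was -1.98 ± 0.51 (SE), with an unadjusted p of 0.000707 in edgeR.

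Xpo6 (chromosome 7, 126101715 to 126200501) encodes the exportin that carries actin out of the nucleus. It had 9.62, 12.1 and 15.8 CPM in VP64 against 16.4, 27.005 and 37.4 CPM in Ctrl and 11.5, 23.2 and 27.005 CPM in NI, with no overlap between VP64 and Ctrl. The log2 fold change was -1.14 ± 0.30 (SE), with an unadjusted p of 0.000863 in edgeR. Gldc (chromosome 19, 30098447 to 30175429), the glycine decarboxylase that feeds the folate pool, had 37.3, 90.1 and 99.6 CPM in VP64 against 104, 166 and 380 CPM in Ctrl, again without overlap. Its log2 fold change was -1.34 ± 0.37 (SE), and its NI libraries, from 54.7 to 213 CPM, reached into both groups.

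Cand1, which exchanges the substrate receptors of cullin ubiquitin ligases, had 70.9, 90.998 and 218 CPM in VP64 against 127, 262 and 572 CPM in Ctrl. Hdgf, a nuclear protein with growth factor activity, had 114, 169 and 232 CPM against 191, 284 and 1516 CPM. Their log2 fold changes were -1.42 and -1.47, all VP64 libraries lay below the Ctrl median in both, and the ranges overlapped. Hdgf rested in part on Ctrl replicate 3, its highest library, and its estimate was -0.65 without that library.

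**Figure D2:**
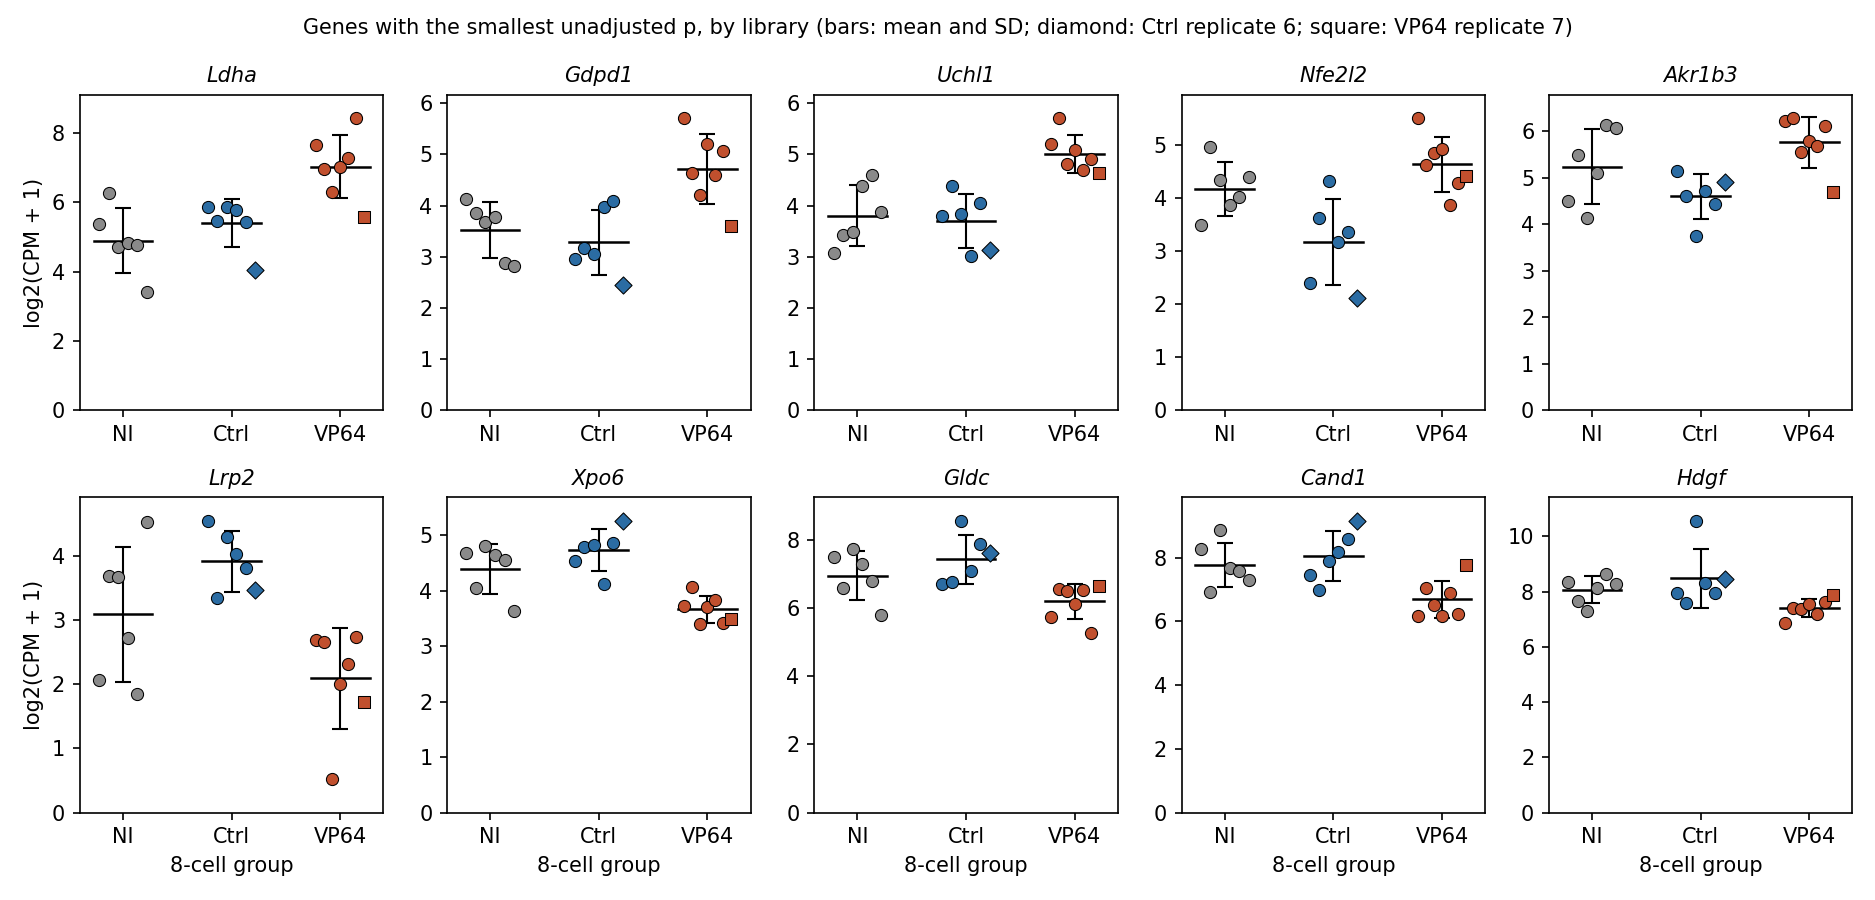
Points are libraries, with log2(CPM + 1) on the vertical axis and the 3 groups of the 8-cell stage on the horizontal axis, and lines with bars give the mean and SD. The 5 genes of the upper row stand higher in VP64 and the 5 of the lower row lower, with full separation from Ctrl in Uchl1, Lrp2, Xpo6 and Gldc.

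Complete separation of the groups was rare. Every VP64 library was above every Ctrl library in 8 genes (0.0812% of those tested) and below in 13 genes (0.132%). At 10 CPM or more the genes above were Uchl1, Qdpr and Mtap. Qdpr, which regenerates the cofactor tetrahydrobiopterin, had 24.1, 29.2 and 36.0 CPM in VP64 against 3.35, 13.62 and 21.8 CPM in Ctrl. Mtap, an enzyme of methionine salvage, had 10.6, 13.4 and 21.9 CPM against 0, 6.63 and 8.85 CPM, where the 0 belongs to Ctrl replicate 6. Their log2 fold changes were 1.09 and 1.19, and both NI ranges reached into the VP64 range.

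The genes below were Lrp2, Xpo6, Gldc, Dmtf1, Klf8, Nid1, Plekhm3, Ppp6r3, Rsc1a1, Trip12, Ubr3 and Usp48. Nid1, a basement membrane protein, had 11.4, 19.7 and 32.6 CPM in VP64 against 34.03, 44.5 and 93.9 CPM in Ctrl, a log2 fold change of -1.24. Ppp6r3, a regulatory subunit of protein phosphatase 6, had 18.3, 29.7 and 35.1 CPM against 35.9, 55.3 and 66.5 CPM. Dmtf1 and Klf8, which encode transcription factors, had log2 fold changes of -1.31 and -1.27. Trip12 and Ubr3, which encode ubiquitin ligases, stood at -0.61 and -0.92, and Usp48, a deubiquitinase, at -0.90. The value of Rsc1a1 is uncertain, since 100% of its 31-base words also occur in Ddi2, the gene it lies within.

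Enpep, an aminopeptidase of cell surfaces, had the smallest unadjusted p of all genes, 0.000126 in edgeR, and is named after its values were seen because it lies under 10 CPM. It had 0, 0.550 and 0.875 CPM in VP64 against 0, 5.86 and 15.1 CPM in Ctrl and 0.374, 5.38 and 7.06 CPM in NI. All 7 VP64 libraries were below the Ctrl median, and 1 Ctrl library was also at 0. The estimate in edgeR was a log2 fold change of -3.63 ± 0.79 (SE). DESeq2 called this gene alone, with a log2 fold change of -3.69 ± 0.776 (SE) and an adjusted p of 0.0349.

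The stage score asks whether the libraries differ as a whole along the path from the 2-cell to the 8-cell stage. Its genes come from NI libraries, which are in neither group. The score was 3.52, 3.99 and 4.13 in VP64 and 3.28, 4.22 and 4.70 in Ctrl, and Ctrl replicate 6 gave the lowest value of all. The means were 3.904 ± 0.226 (SD, n = 7) and 4.21 ± 0.520 (SD, n = 6), a difference of -0.31 with an exact permutation p of 0.185, two-sided, and 0.185 after Benjamini-Hochberg adjustment over 3 library measures. The difference was thus within the spread between libraries. Without Ctrl replicate 6 the Ctrl mean was 4.40 ± 0.275 (SD, n = 5), all 7 VP64 libraries lay below the remaining 5, and the difference was -0.49 with an exact permutation p of 0.00126, the smallest that 792 splits can give, and an adjusted p of 0.00379. Leaving out VP64 replicate 7 as well gave -0.45 and an adjusted p of 0.00649 by the same exact test. Both adjustments used the p-values of the other library measures from all libraries. Replicate 6 was the only Ctrl library below any VP64 library, so leaving it out fixed the p at its minimum and gives no separate support. The call on the stage score therefore turned on 1 library. The NI libraries, from 4.25 to 4.63, lay above all VP64 libraries, but the genes were chosen in them, so that position is no test.

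The rising and the falling part of the score are shown by library. The 200 genes that fell towards the 8-cell stage in NI had a mean log2(CPM + 1) of 0.669, 0.766 and 0.995 in VP64 against 0.414, 0.606 and 0.759 in Ctrl. The highest Ctrl value was again that of replicate 6, and the other 5 were at most 0.630, under every VP64 library. The 200 genes that rose had 4.44, 4.73 and 4.97 in VP64 against 4.04, 4.84 and 5.30 in Ctrl, with a broad overlap. In the fit, 46 of the 200 rising genes had a log2 fold change above 0, with a median of -0.28 beside -0.06 over all genes, and 0 of them were higher and 12 lower at an unadjusted p under 0.05, where 1.54% of all genes were higher and 2.45% lower. The 12 became 8 to 20 when 1 library was left out, the highest without Ctrl replicate 6. With limma-voom 81 of the 200 rising genes stood above 0, and 5 were higher and 6 lower. Their median was then -0.11, beside 0.09 over all genes. The rising median stayed below 0 in all 22 alternatives. Of the 200 falling genes only 33 passed the filter, and 22 of these stood above 0. Their median of 0.21 kept its sign in all alternatives but 1. That was a filter at 10 CPM, which left 7 genes, 3 of them above 0, with a median of -0.21.

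**Figure D3:**
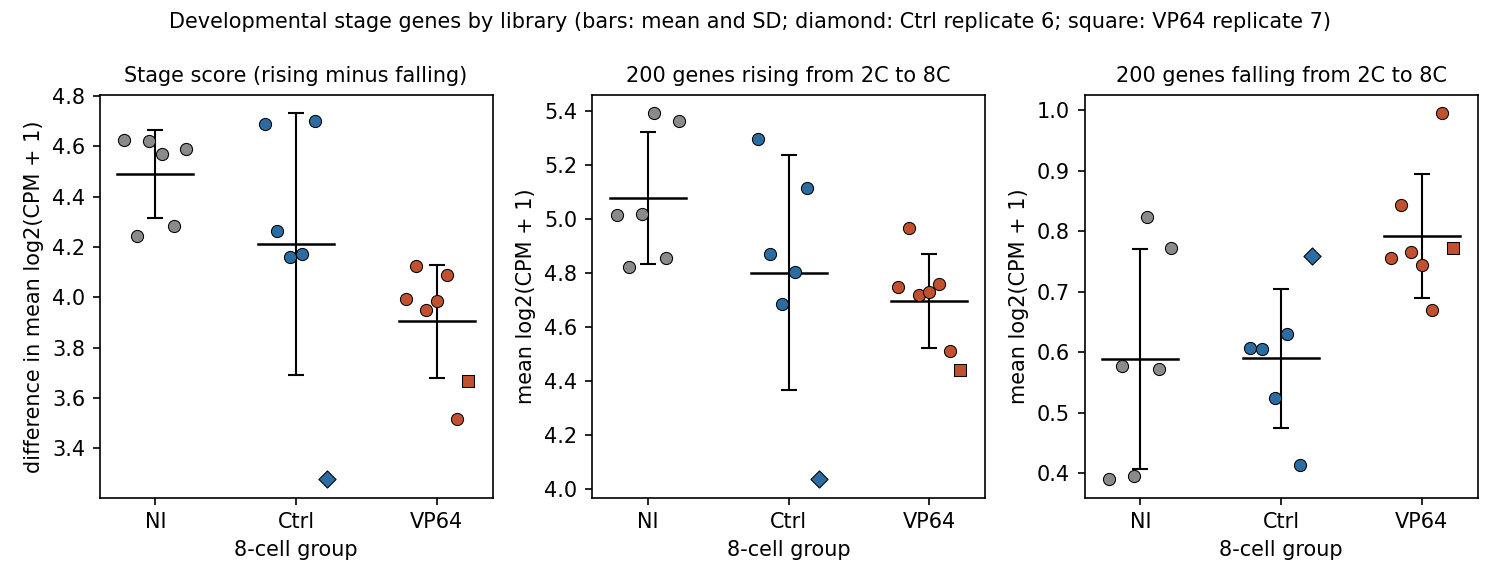
Points are libraries of the 3 groups at the 8-cell stage, with the stage score, its rising part and its falling part on the vertical axes in log2(CPM + 1), and lines with bars give the mean and SD. In the score, the diamond, Ctrl replicate 6 at 3.28, lies below all VP64 libraries, while the other 5 Ctrl libraries lie above them. In the falling part Ctrl replicate 6, at 0.759, lies among the VP64 libraries and the other 5 lie below them. The rising part of the 2 groups overlaps.

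Genes that stood out at an unadjusted p under 0.05 differed in their behaviour over development. Of the 137 higher genes that could also be tested between the stages in NI, 26.3% fell from the 2-cell to the 8-cell stage, against 17.7% of all genes. Of the 236 such lower genes 35.2% rose between the stages, against 26.3% of all genes. The sets also differed in level, with a median in Ctrl of 2.61 CPM for the higher and 35.5 CPM for the lower genes. Over all genes it was 18.4 CPM. These shares are descriptive, and the part that level or library quality has in them was not tested.

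The other library measures did not pass either. After thinning every library to the same total, VP64 libraries held 11982 ± 949 genes (SD, n = 7) and Ctrl libraries 10817 ± 1234 genes (SD, n = 6), with an exact permutation p of 0.0944 and an adjusted p of 0.185. Without VP64 replicate 7, which held 9929, the VP64 mean was 12324 ± 311 (SD, n = 6). The difference of 1507 had an exact permutation p of 0.00433, and of 0.0130 when adjusted in the same way as the stage score. Replicate 7 was the lowest VP64 library on this measure, so leaving it out gives no separate support. The 10 most abundant genes took 8.44% ± 3.03 of the counts (SD, n = 7) in VP64 and 11.7% ± 5.17 (SD, n = 6) in Ctrl, with an exact permutation p of 0.172 and an adjusted p of 0.185.

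Genes of the 2-cell embryo and of genome activation were the first group described by list. For comparison with this and every list below, 44.6% of all genes tested stood above 0. At an unadjusted p under 0.05, 1.54% of all genes were higher and 2.45% lower. Of 74 genes, 59 were in the table and 44 were tested, 0 passed, 22 stood above 0, and 3 were higher and 0 lower at an unadjusted p under 0.05. The median log2 fold change was 0.01, ranging from -0.03 to 0.38 over the 22 alternative settings. As a scale, the same list had a median of -2.37 from the 2-cell to the 8-cell stage in NI. The most abundant members were Obox6, a homeobox gene, at 942, 1286 and 3936 CPM in VP64 against 401, 1781 and 2400 CPM in Ctrl, and Sp110, a nuclear body protein gene, at 428, 720 and 1252 CPM against 423, 1327 and 2225 CPM. Their log2 fold changes were -0.04 and -0.77.

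Less abundant members of this list are named after their values were seen. All come from the higher side of a list in which 22 of 44 tested genes stood above 0. Usp17lc, of a deubiquitinase family expressed in the 2-cell embryo, had 0, 4.42 and 6.59 CPM in VP64 against 0, 0.308 and 0.640 CPM in Ctrl and 0, 0.743 and 2.62 CPM in NI. All VP64 libraries but replicate 7, which was at 0, lay above all Ctrl libraries. Obox3 had 0.566, 3.02 and 7.16 CPM against 0, 0.0851 and 3.42 CPM, and Hspa1a, an inducible heat shock gene that marks genome activation, had 1.43, 7.44 and 14.998 CPM against 0, 0.675 and 5.44 CPM. Of the genes related to the translation factor Eif1a, Gm2016 had 11.9, 23.1 and 63.4 CPM in VP64 against 2.28, 10.3 and 45.0 CPM in Ctrl and 1.39, 2.96 and 7.73 CPM in NI. Gm2022, Gm5662 and Gm8300 had medians of 11.5, 38.96 and 11.7 CPM in VP64 against 7.86, 34.9 and 9.43 CPM in Ctrl and 1.45, 3.41 and 2.31 CPM in NI. The log2 fold changes of Gm2016, Gm2022, Gm5662 and Gm8300 between VP64 and Ctrl were 0.84, 1.23, 0.40 and 0.38. Their unadjusted p-values in edgeR were 0.142, 0.0617, 0.519 and 0.467. In each of them the Ctrl median also lay above the NI median. All these families share reads among near-identical copies, with 100% of the words of Gm2022 and 60.6% of those of Usp17lc found in other genes, so single values are uncertain.

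Maternal oocyte transcripts did not pass either. Of 92 genes 48 were tested, 28 stood above 0, and 3 (Uchl1, Fbxw15 and Dazl) were higher and 0 lower at an unadjusted p under 0.05. The median log2 fold change was 0.03, beside -4.09 between the stages in NI, and became 0.24 without Ctrl replicate 6. Dppa3, which protects the maternal genome from demethylation, had 4861, 8003 and 35894 CPM in VP64 against 6983, 11982 and 73758 CPM in Ctrl. Its log2 fold change of -0.84 rested on Ctrl replicate 6, and was 0.09 without it. Khdc3, of the subcortical maternal complex, stood at -0.87.

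Genes of ribosomes and their making, which the embryo raises early in cleavage, stood near 0. None of the 79 cytosolic ribosomal protein genes reached an unadjusted p of 0.05, and 28 stood above 0. All 79 had an interval within 4-fold, and 31 within 2-fold. Their median of -0.06 became 0.30 without Ctrl replicate 6 and -0.26 without VP64 replicate 6, so it has no stable direction. Of 76 ribosome biogenesis genes, 21 stood above 0, where 44.6% of all genes did, and the median was -0.17. At an unadjusted p under 0.05, 0 were higher and 5 lower, where 2.45% of all genes were lower. Without Ctrl replicate 5 these were 34 above 0, 1 lower and a median of -0.08. Npm1, the nucleolar chaperone nucleophosmin, had 3116, 3785 and 7917 CPM against 2535, 5637 and 7597 CPM, a log2 fold change of -0.32 ± 0.36 (SE). Mybbp1a, a nucleolar protein named after its values were seen, stood at -1.15, with 607 CPM in Ctrl replicate 5, and at -0.39 without that library.

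Translation factors and tRNA synthetases gave a median of -0.18 over 57 genes, with 0 higher and 1 lower at an unadjusted p under 0.05. Leaving out Ctrl replicate 5 turned that median to 0.02, with 32 of 57 genes above 0. Eif5, which triggers GTP hydrolysis in initiation, stood at -0.84 ± 0.44 (SE), and at -0.34 without Ctrl replicate 6. The 32 proteasome genes had a median of -0.02, and all had an interval within 4-fold. The 75 nuclear genes of the respiratory chain had a median of -0.05 and 0 members at an unadjusted p under 0.05 in either direction. Leaving out Ctrl replicate 6 moved that median to 0.58 and leaving out VP64 replicate 7 to -0.36. Atp5b, the catalytic subunit of ATP synthase, had 331, 1265 and 1753 CPM in VP64 against 366, 1119 and 2331 CPM in Ctrl, a log2 fold change of 0.04 ± 0.42 (SE).

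Lists of lineage and morphology had no member past the threshold. Of 30 tested genes of pluripotency and the inner cell mass, 7 stood above 0, and the median was -0.42, between -0.53 and -0.27 in every alternative. At an unadjusted p under 0.05, 0 of them were higher and 3 lower. Pou5f1, which encodes OCT4, had 95.04, 407 and 547 CPM in VP64 against 63.7, 312 and 584 CPM in Ctrl, a log2 fold change of 0.08 ± 0.52 (SE). Nanog, its partner factor, had 457, 835 and 2703 CPM against 376, 786 and 3617 CPM, a log2 fold change of 0.06 ± 0.57 (SE) that became 0.77 without Ctrl replicate 6 and -0.14 without VP64 replicate 7. Tbx3 and Esrrb, transcription factors of naive pluripotency, stood at -1.44 and -0.81 with unadjusted p-values of 0.0203 and 0.0467 in edgeR. Tbx3 depended on Ctrl replicate 5 at 467 CPM, where the Ctrl median was 83.2 CPM, and stood at -0.52 without it. These 4 genes and the next 2 are named after their values were seen.

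Of 23 trophectoderm genes tested, 6 stood above 0, and 0 were higher and 2 lower at an unadjusted p under 0.05. The median was -0.33. Without Ctrl replicate 5 it was -0.07, with 10 of 24 genes above 0. Gata3, an early trophectoderm factor, had 6.51, 14.8 and 17.0 CPM in VP64 against 11.2, 23.6 and 40.3 CPM in Ctrl, a log2 fold change of -1.01 with an unadjusted p of 0.0168 in edgeR. All 7 VP64 libraries lay below the Ctrl median, with some overlap. Cdx2, the factor that fixes trophectoderm fate, was low in both groups, at 1.14, 4.81 and 12.6 CPM against 2.79, 7.04 and 19.7 CPM. The water channel gene Aqp3, used when the blastocyst cavity fills, had 86.04, 147 and 230 CPM against 47.5, 126 and 238 CPM, a log2 fold change of -0.06. Aqp9 stood at -0.23. In bulk RNA of whole embryos, fewer cells of a type and less RNA per cell cannot be told apart.

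The primitive endoderm list had 11 tested genes, of which 4 stood above 0 and 1 was higher and 1 lower at an unadjusted p under 0.05. The higher gene, Sparc, a protein of the extracellular matrix, had a log2 fold change of 2.47 ± 1.16 (SE) and is named after its values were seen. The list's median of -0.12 had no stable direction, with 0.18 without Ctrl replicate 5 and 0.21 in limma-voom. Gata6, a transcription factor of that lineage and the lower of the pair, had 24.4, 32.6 and 67.1 CPM in VP64 against 42.5, 63.8 and 95.98 CPM in Ctrl, with 1 VP64 library above the Ctrl median and a log2 fold change of -0.81. Gata4 stood at -0.27, and at 0.35 without Ctrl replicate 5. Of 45 genes of compaction, polarity and junctions, 11 stood above 0, 0 were higher and 2 lower at an unadjusted p under 0.05, and the median was -0.40, between -0.45 and -0.22 in every alternative. Cldn4, a tight junction protein, had 170, 294 and 532 CPM in VP64 against 27.4, 549 and 1020 CPM in Ctrl. All VP64 libraries were below the Ctrl median, and the lowest value of all was that of Ctrl replicate 6. Cdc42, the polarity GTPase, stood at -0.23 ± 0.28 (SE).

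Chromatin genes were of interest because the series concerns chromatin accessibility. Of 69 genes of DNA methylation and histone modification, 17 stood above 0, 0 were higher and 5 lower at an unadjusted p under 0.05, where 2.45% of all genes were lower, and the median was -0.34. The count of 5 rested on single libraries, since it was 1 without any of VP64 replicates 1, 3 and 6 or Ctrl replicate 4, and 8 without VP64 replicate 7. Without Ctrl replicate 5 the median was -0.21. Jarid2, a subunit of the Polycomb complex PRC2, had 40.4, 48.6 and 76.7 CPM in VP64 against 54.8, 105 and 153 CPM in Ctrl and 103, 147 and 228 CPM in NI. Its log2 fold change was -1.01 ± 0.29 (SE), with an unadjusted p of 0.00198 in edgeR, and all VP64 libraries lay below the Ctrl median and below all NI libraries. Trim28, the corepressor that brings silencing to retrotransposons, had 90.1, 98.2 and 140 CPM in VP64 against 128, 158 and 225 CPM in Ctrl, a log2 fold change of -0.56. Cbx5, which encodes the heterochromatin protein HP1 alpha, stood at -0.64, Kdm5b, a demethylase of H3K4, at -0.92, and Tet2, an oxidase of methylated DNA, at -1.08. These 5 genes are named after their values were seen and are all those of the list at an unadjusted p under 0.05. The estimate for Kdm5b was -0.37 without Ctrl replicate 6. Cbx3, another HP1 gene, showed how far a single library can set a value, with -1.10 in all libraries and 1.31 without Ctrl replicate 6, where it had 23062 CPM against a Ctrl median of 944 CPM.

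Of 57 histone chaperone and remodelling genes, 22 stood above 0, and 0 were higher and 3 lower at an unadjusted p under 0.05. The median was -0.18. H3f3b, a gene of the replacement histone H3.3, had 2307, 3341 and 10078 CPM in VP64 against 1900, 3846 and 12209 CPM in Ctrl, a log2 fold change of -0.40 that became -0.01 without Ctrl replicate 6 and -0.76 without VP64 replicate 7. Genes that silence or restrict retrotransposons, the class to which LINE-1 belongs, gave 39 tested members, 16 above 0, 1 higher and 2 lower at an unadjusted p under 0.05, and a median of -0.15, which became 0.04 without Ctrl replicate 3. Tex19.1, a guard against retrotransposons in germ cells and placenta, had 90.2, 249 and 340 CPM against 56.5, 149 and 339 CPM, and Pphln1, a subunit of the HUSH silencing complex, 159, 201 and 795 CPM against 187, 301 and 578 CPM. Their log2 fold changes were 0.45 ± 0.39 and -0.34 ± 0.40 (SE), the latter -0.85 without VP64 replicate 7. Of 46 interferon and nucleic acid sensing genes only 15 were tested, 0 reached an unadjusted p of 0.05, and the median of 0.00 became 0.58 without Ctrl replicate 6. Xaf1, an interferon-inducible gene, had 294, 567 and 1979 CPM in VP64 against 124, 551 and 2119 CPM in Ctrl.

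**Figure D4:**
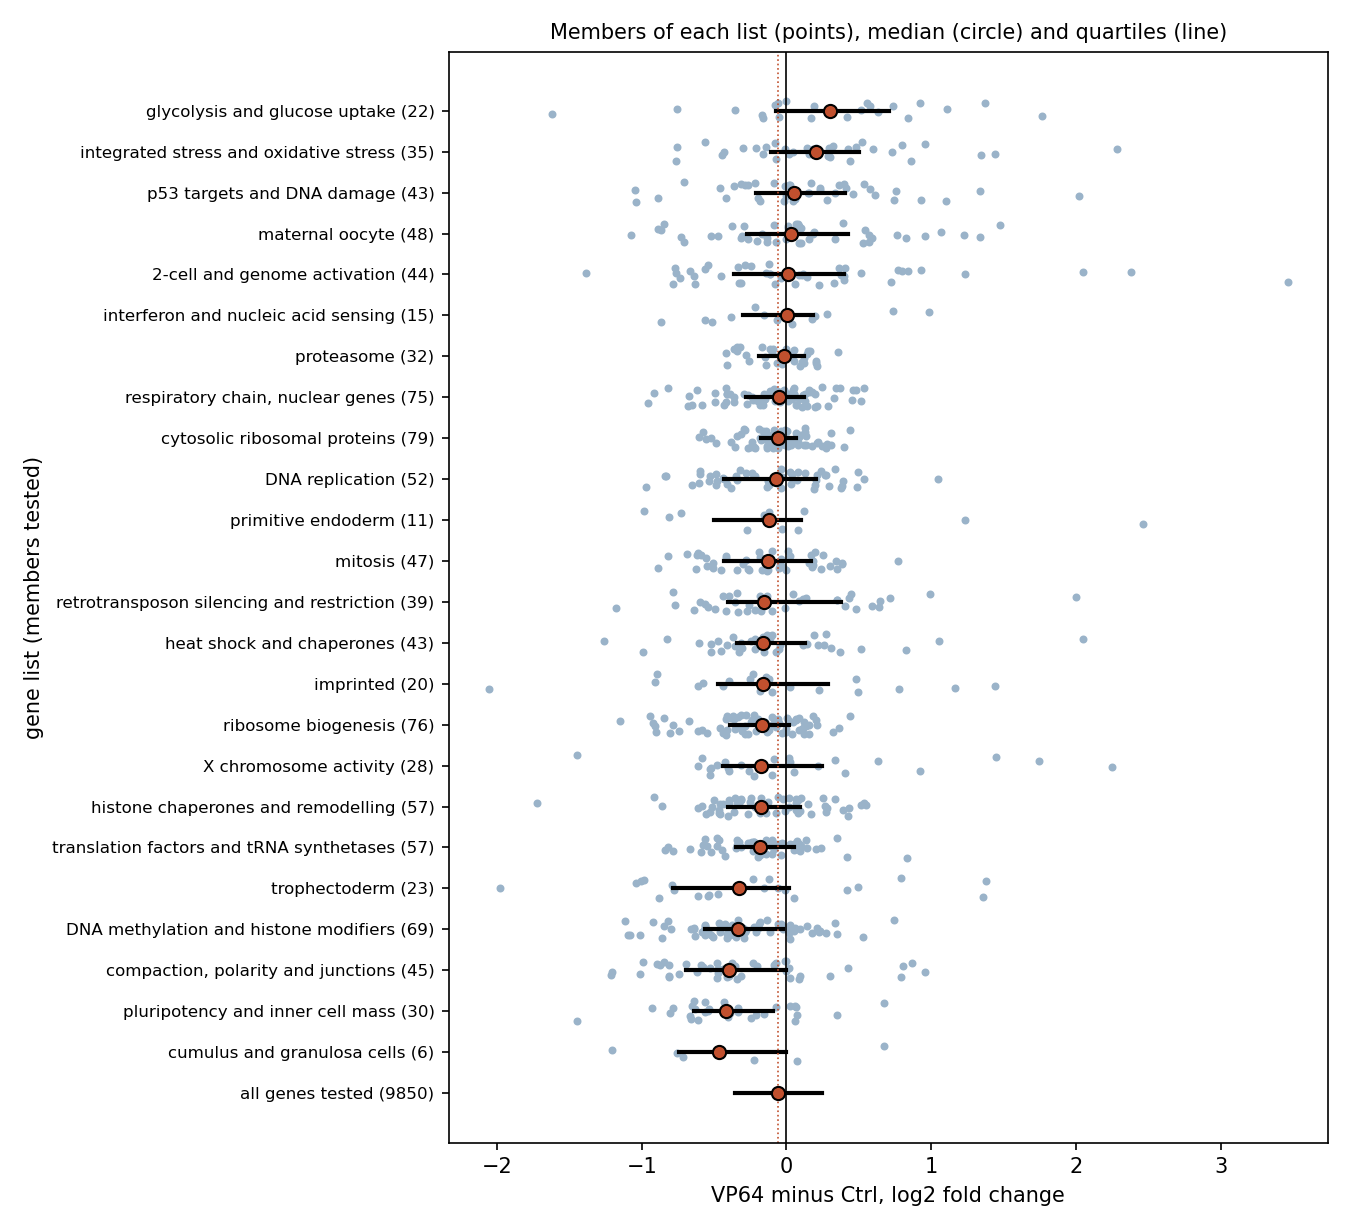
Points are the tested members of each list, placed by their VP64 minus Ctrl log2 fold change, with the list's median (circle) and quartiles (line), and the dotted line is the median of all 9850 genes, -0.06. Among lists with at least 5 tested members, medians run from -0.47 (cumulus and granulosa cells, 6 genes) to 0.30 (glycolysis and glucose uptake, 22 genes), and no member of any list passed the threshold. The cumulus median had no stable direction and ran from -0.72 to 0.71 over the 22 alternatives. The 0.71 was with no filter on low counts, over 30 genes.

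Glycolysis and glucose uptake had the highest median of the lists with at least 5 tested members. Of 22 genes, 13 stood above 0, 2 were higher and 1 lower at an unadjusted p under 0.05, and the median was 0.30, between 0.14 and 0.49 in every alternative. Besides Ldha, Gapdh had 21.2, 147 and 211 CPM in VP64 against 16.8, 52.9 and 100 CPM in Ctrl and 25.8, 45.6 and 153 CPM in NI. Gapdh is the glycolytic dehydrogenase of glyceraldehyde phosphate, and 6 of 7 VP64 libraries lay above the Ctrl median, the exception being replicate 7. Its log2 fold change was 1.37 ± 0.49 (SE), with an unadjusted p of 0.0104 in edgeR. The enzymes Pgk1, Pkm and Eno1 stood at 0.92, 0.84 and 0.73, with unadjusted p-values of 0.108, 0.149 and 0.0638 in edgeR.

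Other named members stood level or lower. Pgam1, a mutase of the same pathway and the most abundant member, had 312, 460 and 777 CPM in VP64 against 166, 520 and 810 CPM in Ctrl, a log2 fold change of -0.06. Pdha1, of pyruvate dehydrogenase, stood at -0.35. Slc2a3, the glucose transporter GLUT3, had 2.00, 15.7 and 22.8 CPM against 8.53, 36.5 and 93.5 CPM, a log2 fold change of -1.62 with an unadjusted p of 0.0118 in edgeR, and all VP64 libraries were below the Ctrl median. Gapdh, Pgk1, Pkm, Eno1 and Slc2a3 are named after their values were seen. Processed copies share words with many of these genes, 54.7% of those of Pgk1 and 27.2% of those of Gapdh, and reads could be divided among them.

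Stress genes gave a mixed account. Of 35 tested genes of integrated and oxidative stress, 23 stood above 0, 2 were higher and 0 lower at an unadjusted p under 0.05, and the median was 0.20, between 0.11 and 0.41 in every alternative. Besides Nfe2l2, Hmox1, the haem oxygenase that NRF2 controls, had 2.29, 26.7 and 48.5 CPM in VP64 against 0, 6.54 and 12.6 CPM in Ctrl and 2.50, 9.23 and 54.4 CPM in NI. All VP64 libraries but replicate 7 were above every Ctrl library. Its log2 fold change was 2.28 ± 0.85 (SE), with an unadjusted p of 0.0130 in edgeR, and NI reached as high as VP64. The most abundant members, Slc3a2, an amino acid transporter chain, and Phgdh, the first enzyme of serine synthesis, stood at 0.43 and -0.21.

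Of 43 genes of the p53 response and DNA damage, 26 stood above 0, 2 were higher and 1 lower at an unadjusted p under 0.05, and the median was 0.05. Cdkn1a, the p53 target p21, had 202, 299 and 442 CPM in VP64 against 175, 289 and 583 CPM in Ctrl, a log2 fold change of 0.02 ± 0.41 (SE). Bbc3, the cell death gene PUMA, had 1.43, 8.12 and 27.5 CPM against 0, 3.21 and 5.14 CPM, and Parp1, a sensor of DNA breaks, stood at -1.04. Hmox1, Bbc3 and Parp1 are named after their values were seen. Heat shock and chaperone genes had a median of -0.16 over 43 members, which became 0.05 without Ctrl replicate 5, with 24 of 43 above 0. With all libraries, 1 was higher and 2 lower at an unadjusted p under 0.05. Hspa8, the constitutive HSC70, had 1356, 3112 and 4312 CPM in VP64 against 2560, 5625 and 20132 CPM in Ctrl, a log2 fold change of -1.26 ± 0.58 (SE), and Hsp90ab1 stood at -0.52 ± 0.34 (SE).

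Genes of the cell cycle stood near the level of all genes. The median was -0.07 over 52 DNA replication genes and -0.13 over 47 mitosis genes, with 0 and 1 higher and 1 and 0 lower at an unadjusted p under 0.05, and all 47 mitosis genes had an interval within 4-fold. Without Ctrl replicate 5 the mitosis median was -0.04. Ccnb1, cyclin B1, had 1890, 2341 and 2381 CPM in VP64 against 778, 2641 and 6474 CPM in Ctrl, so that the VP64 libraries lay close together inside the wide Ctrl range. Rrm2, a subunit of the enzyme that makes deoxynucleotides, and Gmnn, which encodes geminin, an inhibitor of replication licensing, stood at -0.48 and 0.19.

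Imprinted and X-linked genes close the account. Of 20 imprinted genes tested, 0 were higher and 2 lower at an unadjusted p under 0.05. Phlda2, a brake on placental growth, was 1 of them at -2.05, but one Ctrl library, replicate 6, had 2053 CPM where the Ctrl median was 74.8 CPM, and without it the estimate was 0.23. Igf2r, the receptor that clears IGF2, had 37.3, 49.2 and 129 CPM in VP64 against 76.5, 109 and 179 CPM in Ctrl, a log2 fold change of -0.91 that was -0.83 without that library. Of 28 genes of the X chromosome, 11 stood above 0, and 2 were higher and 0 lower at an unadjusted p under 0.05, where 1.54% of all genes were higher. Xlr3a had 7.44, 14.1 and 22.6 CPM in VP64 against 0, 2.01 and 9.17 CPM in Ctrl, and Magea5 3.15, 13.1 and 36.1 CPM against 0.559, 3.60 and 9.54 CPM. Their log2 fold changes were 2.25 and 1.75, both share most of their words with family members, and with Igf2r they are named after their values were seen. Hprt and Lamp2, housekeeping genes of the same chromosome, stood at -0.26 and -0.17.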

How the data were processed

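RNA of 36 libraries was measured by RNA-seq, of which the 13 VP64 and Ctrl libraries of the 8-cell stage are compared here. The table the authors deposited holds expected counts for each gene symbol. The submitters' processing notes name Bowtie2, RSEM and the mm10 build. RSEM splits reads matching several genes, and tool versions and gene models were not given in the sources used here. All per-sample columns were used (0 left out).

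Expected counts were rounded and tested with edgeR 4.0.16 (quasi-likelihood, robust option, TMM, R 4.3.3) on all 19 libraries of the stage, after filterByExpr at its settings of 10 (count) and 15 (total), at an adjusted p of 0.05. Alternatives were DESeq2 1.42.0, limma-voom (limma 3.58.1), other filters and scalings and each library left out. The fits with library weights and without both libraries that stood apart were added after seeing the data. Scripts were tested on simulated data. Library measures were tested by exact permutation over 1716 splits. Replicates of a group differed beyond sampling noise in all pairs, with a chi-square of at least 6.92 per degree of freedom. The table holds 0 of 15 genes of the mitochondrial genome. Totals give each library's depth, and the number of pools limits the precision.

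Named genes are, for a direction with fewer than 5 genes past the threshold, the 5 with the smallest unadjusted p at 10 CPM or more, the 2 most abundant of each list, and those whose groups do not overlap, a rule added after the data were seen. Not all are printed, and a withheld result is not reported here. Others are marked. The members and the 26 lists were chosen with earlier results of these data known. Gene positions were taken from GENCODE vM21 (GRCm38, which UCSC calls mm10), where all 101 symbols matched.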

Additional observations from a re-analysis of the deposited data

Results flagged for a closer look

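In each group the highest and the lowest library were compared with the rest by Dixon's ratio, on log2(CPM + 1) for genes, in 214 sets of values, and 41 held a library farther from its nearest neighbour than the 95% critical value allows. Chance flags about 1 in 20. Most fell on the 2 libraries that stand apart, and none is explained here.

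Ctrl replicate 6 was high in the share of its 10 most abundant genes (21.9%) and in Atp5g1 (6916 CPM), Dppa3 (73758 CPM), Nhp2 (5659 CPM) and Rpl41 (8416 CPM). It was low in its median rank correlation with other libraries (0.746) and in Cldn4 (27.4 CPM), Ldha (15.6 CPM), Obox6 (401 CPM) and Qdpr (3.35 CPM), and Mtap and Pgk1 were at 0 CPM.

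VP64 replicate 7 was high in Atp5g1 (3639 CPM), Cbx3 (10138 CPM), Eif2s2 (4654 CPM), Eif5 (6172 CPM), Gja1 (1404 CPM), H3f3b (10078 CPM), Nhp2 (3959 CPM), Obox6 (3936 CPM), Pphln1 (795 CPM) and Snurf (792 CPM). It was low in genes detected after thinning (9929) and in Atp5b (331 CPM), Ei24 (49.8 CPM), Gapdh (21.2 CPM), Hmox1 (2.29 CPM), Phgdh (145 CPM), Pkm (8.87 CPM), Slc2a3 (2.00 CPM) and Usp17lc (0 CPM).

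The remaining values were spread over 4 libraries. Ctrl replicate 3 was high in Hdgf (1516 CPM) and Klf8 (27.6 CPM) and low in Npm1 (2535 CPM), and Ctrl replicate 5 was high in Mybbp1a (607 CPM) and Usp48 (364 CPM). VP64 replicate 6 was high in Hsp90ab1 (5841 CPM), Npm1 (7917 CPM) and Slc3a2 (2422 CPM), and VP64 replicate 1 was high in Lamp2 (467 CPM) and low in Ccnb1 (1890 CPM).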

How the results depend on the processing

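The call of 0 genes held in every alternative but DESeq2, which called 1, Enpep, lower in VP64, so that its count of genes lower was also 1. Genes at an unadjusted p under 0.05 numbered 393 of 9850, against 757 of 17696 with DESeq2 and 1392 of 17836 with no filter on low counts. They numbered 745 of 9850 with limma-voom and quality weights per library. When 1 library was left out they ran from 267 of 9802 to 596 of 9672, the highest without VP64 replicate 7. The stage score difference of -0.31 ranged from -0.49 to -0.21 when 1 library was left out, and passed without Ctrl replicate 6 (-0.49) and without both libraries that stood apart (-0.45). The difference in genes detected ranged from 782 to 1507 when 1 library was left out, and passed without VP64 replicate 7 (1507) and without both (1124). In both measures the library left out was the lowest of its group, so these passes give no separate support. The share of the 10 most abundant genes differed by -4.11 to -1.29 percentage points when 1 library was left out. Of 101 named genes, 72 kept the sign of their log2 fold change in all alternatives that gave them a value and 29 did not, 14 of them without Ctrl replicate 6. Of 27 lists, 11 kept the sign of their median in all. No paired analysis was possible because the labels give no replicate numbers, and those used here follow accession order and only name libraries. The spread between pools limits the comparison. The median half-width was 1.01 on the log2 scale over all genes and 0.888 over genes of at least 10 CPM. The part that depth has in it was not tested, nor was the cause of the distance of Ctrl replicate 6 and VP64 replicate 7.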
